A study of Rattus norvegicus with 9 samples.

Results

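Circadian clock genes were followed in rat femur across 9 RNA-sequencing libraries. The 10 members were Dbp, Tef, Nr1d1, Nr1d2, Per1, Per2, Per3, Ciart, Arntl and Clock, matched by gene symbol in a table of 32623 gene rows, and each symbol had 1 row. They were selected on known clock roles and on measured values of these same libraries: lower levels of clock output genes in treated than in ovariectomized rats had been seen before the list was drawn up. The values of that comparison are therefore given as a description with no test. The other comparisons share the treated or the ovariectomized libraries with it, so they are not free of this choice either. All 10 passed the filter of a mean of at least 1 FPKM (a read level scaled for gene length and library depth) over the 9 libraries, as did 13886 genes in all.

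The libraries were made from poly(A) RNA of the femur of wild-type rats, 3 libraries per group. The treated group received Desertliving Cistanche herb, a parasitic desert plant of Chinese herbal medicine; the series title places this treatment in ovariectomized rats. The ovariectomized group had lost the ovaries and received no treatment that the labels name, and the control group consisted of normal Sprague-Dawley rats. Dose, duration, age and the hour of day at which the bones were taken are not given by the labels, nor do they state whether each library is a different animal; p-values therefore reflect the spread between libraries, which may be partly technical. Libraries held 54992823 to 66531156 counts.

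The molecular clock is a feedback loop of transcription that runs in nearly every cell. Arntl (also called Bmal1) and Clock form the activator that binds E-boxes in the promoters of the Per, Cry, Nr1d and Dbp genes. PER proteins, with CRY partners, inhibit that activator, while NR1D1 and NR1D2 (REV-ERB alpha and beta) repress Arntl through ROR elements, so that in a tissue sampled around the clock Arntl peaks when Nr1d1 and Dbp are low. Dbp and Tef are transcription factors of the PAR bZIP family that bind D-boxes and carry the rhythm to other genes. Ciart (also called Chrono) is a further repressor of the activator. Per1 and Per2 are also known as immediate targets of glucocorticoid hormones and of cAMP signalling. In mouse bone and cartilage, clock genes are known to cycle. Below, Dbp, Tef, Nr1d1, Nr1d2, the Per genes and Ciart are called outputs, and Arntl and Clock activators.

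Promoter sequence shows which of these elements stand next to the members' start sites. RefSeq windows of the 250 bases before each start site (build GRCr8) were matched for 10 of 10 members, 12 windows in all, because Nr1d1 and Clock each have a pair of listed starts. They were searched on both strands for the E-box CACGTG, the related E′-box CACGTT, the D-box as TTATGTAA or TTACGTAA, and the ROR element as ANTAGGTCA. The E-box was found in 3 members, all of them outputs, and in 5.59% of the 33469 rat windows of the same length. The E′-box was found in 2 members and 4.07% of windows, the D-box in 1 member and 0.932% of windows, and the ROR element in 1 member and 0.568% of windows. A window for each of the 5 members with a match, for Nr1d1 that with the E-box, is shown 5′ to 3′ in the gene's direction, with the matched letters in capitals and the last base next to the start site.
Ciart: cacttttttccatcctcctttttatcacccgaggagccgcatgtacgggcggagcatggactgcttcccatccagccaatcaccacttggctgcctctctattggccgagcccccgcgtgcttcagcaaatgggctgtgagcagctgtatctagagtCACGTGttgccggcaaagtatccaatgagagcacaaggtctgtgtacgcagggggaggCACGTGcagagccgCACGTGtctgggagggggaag
Tef: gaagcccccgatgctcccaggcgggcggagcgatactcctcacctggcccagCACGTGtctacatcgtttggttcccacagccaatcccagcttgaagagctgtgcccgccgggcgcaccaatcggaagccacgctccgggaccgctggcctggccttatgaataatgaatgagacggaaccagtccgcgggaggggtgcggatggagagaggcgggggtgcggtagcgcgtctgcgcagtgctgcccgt
Nr1d1, second start: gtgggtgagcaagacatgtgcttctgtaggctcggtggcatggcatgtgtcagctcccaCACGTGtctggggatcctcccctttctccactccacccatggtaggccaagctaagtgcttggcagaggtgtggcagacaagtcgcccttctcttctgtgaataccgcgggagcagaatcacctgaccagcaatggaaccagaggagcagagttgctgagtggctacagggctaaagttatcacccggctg
Per2: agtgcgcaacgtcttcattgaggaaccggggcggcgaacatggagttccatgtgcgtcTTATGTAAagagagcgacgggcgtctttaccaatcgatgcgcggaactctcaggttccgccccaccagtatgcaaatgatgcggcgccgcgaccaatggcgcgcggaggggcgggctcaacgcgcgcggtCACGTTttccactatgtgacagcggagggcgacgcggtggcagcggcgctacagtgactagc
Arntl: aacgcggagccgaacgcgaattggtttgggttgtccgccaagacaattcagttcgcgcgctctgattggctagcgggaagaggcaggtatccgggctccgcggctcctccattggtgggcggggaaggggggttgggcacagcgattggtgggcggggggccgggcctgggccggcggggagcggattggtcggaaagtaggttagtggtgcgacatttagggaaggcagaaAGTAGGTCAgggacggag

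Positions count back from the start site, so that -1 is the base next to it. The Ciart window lies at chr2:186112247-186112496 on the minus strand and holds 3 E-boxes, which begin at -93, -35 and -21. The Tef window (chr7:115206577-115206826 on the plus strand) has 1 E-box beginning at -198. For Nr1d1, the second start (chr10:84229455-84229704 on the minus strand) has 1 E-box beginning at -191, and its first start has an E′-box in the reverse direction instead. The Per2 window (chr9:99496994-99497243 on the minus strand) has a D-box beginning at -192 and an E′-box beginning at -62. Arntl is the member with the ROR element, beginning at -18 (chr1:176766078-176766327 on the plus strand). No match was found in these windows for Dbp, Nr1d2, Per1, Per3 or Clock, which says only that these letters are absent from these 250 bases. A match is a description of the sequence and was not tested for binding.

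Levels of the members are compared on the FPKM scale, which allows for gene length. Per1 averaged 14.7 FPKM over the 9 libraries and Dbp 12.1 FPKM, and their order was not constant, since Per1 was higher in 6 of 9 libraries. Tef averaged 7.05 FPKM, below Dbp in 9 of 9 libraries. Per2 (6.37 FPKM), Per3 (5.52 FPKM), Nr1d1 (5.15 FPKM) and Nr1d2 (5.12 FPKM) followed closely, with neighbours in the same order in 7, 6 and 5 of 9 libraries. The activators were lower: Arntl averaged 2.30 FPKM, below Nr1d2 in 9 of 9 libraries, and Clock 1.18 FPKM, below Arntl in 8 of 9. Ciart was the lowest member at 1.09 FPKM and could not be separated from Clock, which was higher in 5 of 9 libraries.

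Members also differed in how far libraries of 1 group lay apart. The within-group SD of log2 CPM was 0.14 for Nr1d2 but 0.60 for Clock, 0.54 for Per1 and 0.52 for Nr1d1, against a median of 0.18 over all genes tested. Clock, Per1 and Nr1d1 stood at percentiles 91.1, 89.5 and 88.9 of all genes for this spread, and Nr1d2 at percentile 36.7. Differences of the same size are therefore less certain for Clock, Per1 and Nr1d1 than for Nr1d2.

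Across all genes tested, edgeR's quasi-likelihood test with Benjamini-Hochberg adjustment called no gene at an adjusted p under 0.05 in any comparison (0.0% of 13886 in each), and the unadjusted p was under 0.05 for 722 genes in treated against ovariectomized rats, 1223 in treated against control rats and 701 in ovariectomized against control rats. DESeq2, run on the same counts, called 35 (0.252%), 153 (1.1%) and 59 (0.425%) genes in those comparisons, while limma on log2(FPKM + 1) called 0 in each. Below, per-library values are TMM-normalised CPM values (counts scaled to library depth) in the order of replicates 1, 2 and 3, and fold changes are log2 values from edgeR with their SE. The comparisons share libraries and are not independent of each other. Gene coordinates are those of the deposited table, which names no genome build, and must not be read together with the GRCr8 windows above.

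Dbp and Tef, the PAR bZIP factors, were both at their highest in ovariectomized replicate 2. Dbp (ENSRNOG00000021027, chromosome 1, 101687855 to 101692846, plus strand) measured 16.3, 15.5 and 13.9 CPM in treated rats, 29.3, 33.0 and 20.5 CPM in ovariectomized rats and 20.0, 22.2 and 23.1 CPM in controls. Every treated library lay below every other library, and the ovariectomized and control libraries overlapped. The log2 fold change was -0.86 ± 0.17 for treated against ovariectomized rats, a ratio of 0.552. For treated against control rats it was -0.51 ± 0.17, with an edgeR adjusted p of 0.488. For ovariectomized against control rats it was 0.34 ± 0.17 (edgeR adjusted p 0.974). Dropping ovariectomized replicate 2 lowered this log2 fold change to 0.19, whereas dropping replicate 3 of that group raised it to 0.52.

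Tef (ENSRNOG00000019383, chromosome 7, 123043503 to 123058604, plus strand) measured 25.0, 25.4 and 32.6 CPM in treated rats, 37.8, 38.2 and 31.7 CPM in ovariectomized rats and 27.0, 23.2 and 33.8 CPM in controls. Treated replicate 3 lay above ovariectomized replicate 3, so these groups overlapped, and treated and control libraries covered much the same range. Its log2 fold change was -0.37 ± 0.16 for treated against ovariectomized rats. For treated against control rats it was -0.02 ± 0.16 (edgeR adjusted p 0.981). For ovariectomized against control rats it was 0.36 ± 0.16 (edgeR adjusted p 0.974), and dropping control replicate 2 lowered this log2 fold change to 0.23. The log2 ratio of Dbp to Tef inside a library averaged -0.85 ± 0.33 in treated rats, -0.40 ± 0.21 in ovariectomized rats and -0.35 ± 0.26 in controls (SD, n = 3 each), and the treated range of -1.23 to -0.62 overlapped the ovariectomized range of -0.63 to -0.21 by a narrow margin.

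Nr1d1 and Nr1d2, the REV-ERB repressors of Arntl, were both lower in each treated library than in each ovariectomized library. Nr1d1 (ENSRNOG00000009329, chromosome 10, 86683875 to 86690815, minus strand) measured 6.59, 6.94 and 10.3 CPM in treated rats, 18.5, 26.5 and 14.4 CPM in ovariectomized rats and 7.34, 19.4 and 14.0 CPM in controls. Control replicate 1 sat among the treated libraries, and ovariectomized replicate 2 was the highest of all 9. Treated against ovariectomized rats, the log2 fold change was -1.31 ± 0.37 (a ratio of 0.402), the lowest of the 10 members. It was -0.77 ± 0.37 for treated against control rats (edgeR adjusted p 0.595), and -0.42 without control replicate 2. For ovariectomized against control rats it was 0.54 ± 0.37 (edgeR adjusted p 0.9998), which became 0.24 when control replicate 1 was left out, 0.27 when ovariectomized replicate 2 was left out and 0.89 when control replicate 2 was left out.

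Nr1d2 (ENSRNOG00000046912, chromosome 15, 8730871 to 8757165, plus strand) measured 20.4, 21.3 and 20.8 CPM in treated rats, 32.9, 30.9 and 24.4 CPM in ovariectomized rats and 22.0, 23.7 and 25.3 CPM in controls. The 3 treated libraries lay within 1 CPM of each other and below all others on this scale, although on the FPKM scale treated and control libraries overlapped. Nr1d2 had a log2 fold change of -0.49 ± 0.12 for treated against ovariectomized rats, -0.18 ± 0.12 for treated against control rats (edgeR adjusted p 0.694) and 0.31 ± 0.12 for ovariectomized against control rats (edgeR adjusted p 0.937).

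The Per genes, the negative limb of the loop, did not share 1 pattern. Per1 (ENSRNOG00000007387, chromosome 10, 55687050 to 55695994, plus strand) measured 33.8, 29.3 and 86.1 CPM in treated rats, 73.7, 50.7 and 57.6 CPM in ovariectomized rats and 70.7, 62.7 and 93.7 CPM in controls. Treated replicates 1 and 2 were the lowest of the 9 libraries and treated replicate 3 the second highest. The log2 fold change for treated against ovariectomized rats, -0.29 ± 0.39, was -0.94 without treated replicate 3, -0.07 without treated replicate 1, -0.02 without treated replicate 2 and -0.12 without ovariectomized replicate 1. It was -0.61 ± 0.39 for treated against control rats (edgeR adjusted p 0.694), where it was -1.26 without treated replicate 3, -0.39 without treated replicate 1 and -0.34 without treated replicate 2. For ovariectomized against control rats it was -0.32 ± 0.39 (edgeR adjusted p 0.9998). When 1 library was left out, it ranged from -0.48 (without ovariectomized replicate 1) to -0.14 (without control replicate 3).

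Per2 (ENSRNOG00000020254, chromosome 9, 98555169 to 98597359, minus strand) measured 30.0, 33.1 and 32.5 CPM in treated rats, 50.0, 41.6 and 40.8 CPM in ovariectomized rats and 43.4, 26.2 and 47.6 CPM in controls. Treated and ovariectomized libraries did not overlap, and control replicate 2 was lower than any treated library. Per2 had a log2 fold change of -0.47 ± 0.20 for treated against ovariectomized rats and -0.30 ± 0.20 for treated against control rats (edgeR adjusted p 0.715), the second of which was -0.51 without control replicate 2 and -0.13 without control replicate 3. For ovariectomized against control rats it was 0.18 ± 0.20 (edgeR adjusted p 0.9998), and it was -0.05 without control replicate 2, 0.34 without control replicate 3 and 0.08 without ovariectomized replicate 1.

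Per3 (ENSRNOG00000018413, chromosome 5, 168086998 to 168123395, minus strand) measured 37.1, 33.2 and 34.6 CPM in treated rats, 40.6, 43.4 and 39.7 CPM in ovariectomized rats and 26.5, 35.7 and 44.2 CPM in controls. The ovariectomized libraries lay above the treated ones without overlap, and the controls spread from below the first to above the second of these groups. Its log2 fold change was -0.24 ± 0.16 for treated against ovariectomized rats, the smallest of the outputs, -0.02 ± 0.16 for treated against control rats (edgeR adjusted p 0.976) and 0.22 ± 0.16 for ovariectomized against control rats (edgeR adjusted p 0.9998). The last was 0.04 without control replicate 1 and 0.41 without control replicate 3.

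Ciart (ENSRNOG00000042717, chromosome 2, 197987705 to 197991574, minus strand), the repressor with 3 E-boxes in its window, was measured on few counts, 71 to 180 per library. It had 1.23, 1.34 and 1.72 CPM in treated rats, 1.99, 2.85 and 2.12 CPM in ovariectomized rats and 2.31, 1.70 and 2.67 CPM in controls. Treated libraries lay below every ovariectomized library, while control replicate 2 lay among the treated ones. Ciart had a log2 fold change of -0.70 ± 0.25 for treated against ovariectomized rats, -0.64 ± 0.25 for treated against control rats (edgeR adjusted p 0.525) and 0.06 ± 0.25 for ovariectomized against control rats (edgeR adjusted p 0.9998), the last ranging from -0.12 without ovariectomized replicate 2 to 0.21 without control replicate 3.

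Of the activators, Arntl was similar in the treated and ovariectomized groups. Arntl (ENSRNOG00000014448, chromosome 1, 178039063 to 178137465, plus strand) measured 5.83, 7.08 and 6.12 CPM in treated rats, 6.58, 4.71 and 6.75 CPM in ovariectomized rats and 6.67, 11.2 and 9.43 CPM in controls. Control replicates 2 and 3 were the highest of the 9 libraries, and control replicate 1 lay among the other groups. Arntl had a log2 fold change of 0.08 ± 0.22 for treated against ovariectomized rats, with a negative estimate of -0.06 without ovariectomized replicate 2 and of -0.01 without treated replicate 2, and 0.17 at most when 1 library was left out. It was -0.52 ± 0.22 for treated against control rats (edgeR adjusted p 0.556; -0.34 without control replicate 2) and -0.60 ± 0.22 for ovariectomized against control rats (edgeR adjusted p 0.940).

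Clock (ENSRNOG00000002175, chromosome 14, 34446616 to 34502218, plus strand), the partner of Arntl, varied most within the control group. It measured 8.39, 12.2 and 7.09 CPM in treated rats, 11.3, 11.1 and 8.29 CPM in ovariectomized rats and 24.1, 6.87 and 15.6 CPM in controls. The highest and the lowest of the 9 libraries were both controls. The log2 fold change was -0.15 ± 0.41 for treated against ovariectomized rats, -0.75 ± 0.41 for treated against control rats (edgeR adjusted p 0.632) and -0.60 ± 0.41 for ovariectomized against control rats (edgeR adjusted p 0.9998). Without control replicate 1 the estimate was -0.28 for treated against control rats and -0.14 for ovariectomized against control rats, and without control replicate 2 it was -1.11 and -0.97. For treated against ovariectomized rats it was -0.40 without treated replicate 2 and 0.01 without treated replicate 3.

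**Figure D1:**
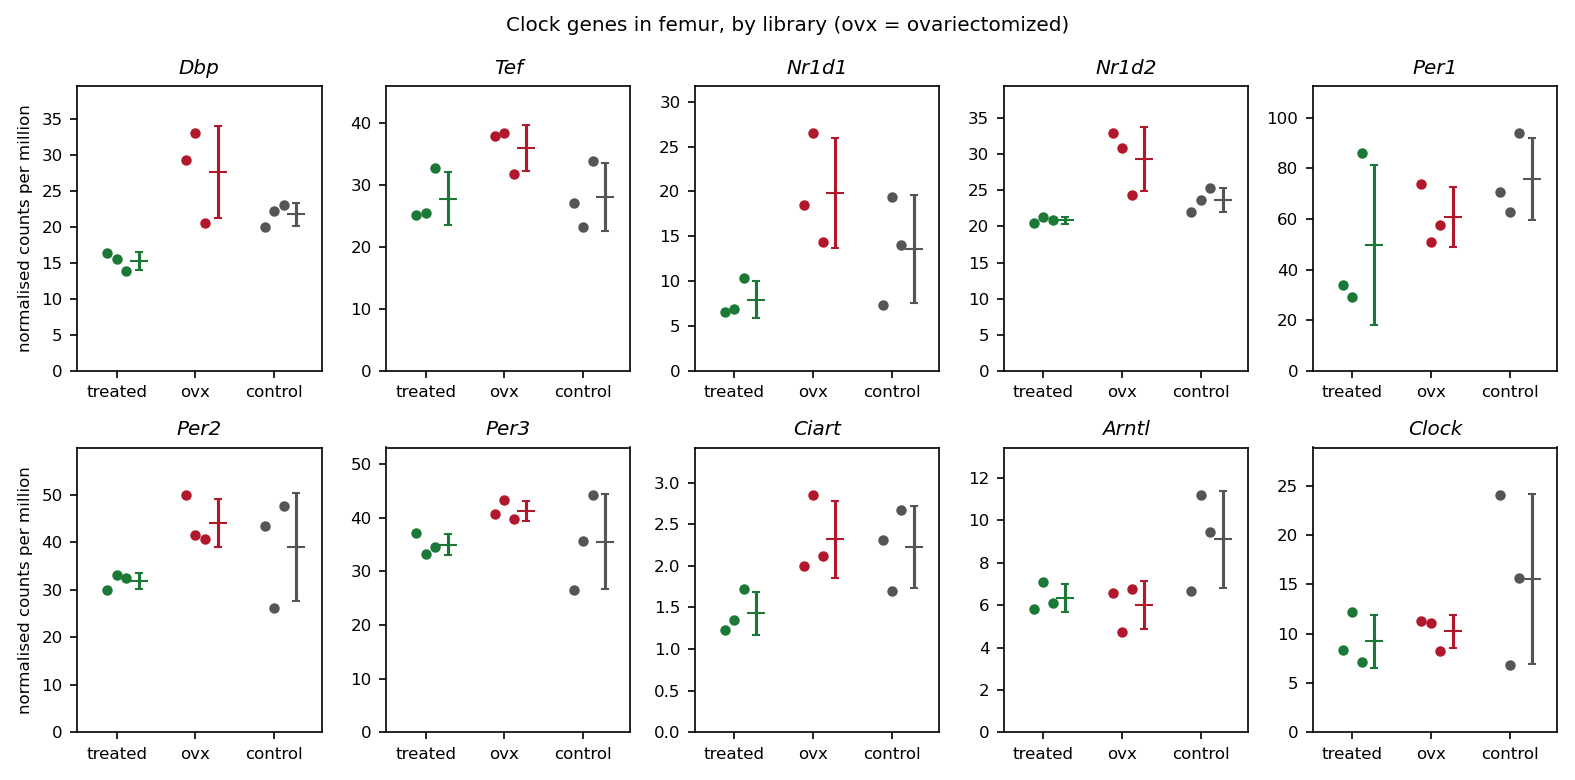
Each panel plots the TMM-normalised CPM of 1 clock gene, with a point per library (replicates 1 to 3 from left to right) and the mean with SD beside it (n = 3), for treated, ovariectomized (ovx) and control rats. Dbp, Nr1d1, Nr1d2, Per2, Per3 and Ciart have all 3 treated points below all 3 ovariectomized points, whereas Tef, Per1, Arntl and Clock overlap.

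The treated against ovariectomized comparison is the one in view when the members were chosen, and the following counts only describe them. The estimate was negative for 8 of 8 outputs, and their median was -0.48 on the log2 scale, where the median of all genes tested was -0.0042. For Arntl and Clock the estimates were 0.08 and -0.15. The libraries of 6 outputs (Dbp, Nr1d1, Nr1d2, Per2, Per3 and Ciart) did not overlap, on the lower side, as was the case for 6.63% of all genes tested, and no member was non-overlapping on the higher side (5.75% of all genes). Just inside the edge of non-overlap was Per3, with the highest treated library at 37.1 CPM and the lowest ovariectomized library at 39.7 CPM, and just outside it was Tef, at 32.6 and 31.7 CPM.

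Treated against control rats, 10 of 10 members had negative estimates, with a median of -0.40 over the 8 outputs and estimates of -0.52 for Arntl and -0.75 for Clock. The same treated libraries were in view when the members were chosen, so negative signs of the outputs were favoured by that choice. Of the members, 2 did not overlap, both lower in treated rats (Dbp and Nr1d2, the second on the CPM scale alone), beside 6.78% of all genes, and 0 were non-overlapping on the higher side (6.34% of all genes). None of the 10 passed the test in edgeR or in DESeq2, which called 1.1% of all genes. The median over the outputs was -0.21 with limma on log2(FPKM + 1), where the median of all genes tested was 0.08; the cause of this difference was not tested. Tef and Per3 had estimates near 0 here, and their sign turned under 5 and 4 of 18 alternatives.

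Ovariectomized against control rats, the estimates of all outputs except Per1 lay on the opposite side of 0 from the activators, but this split was not stable. Clock was at -0.14 without control replicate 1, and Ciart kept its sign under 14 of 17 alternatives. With the skeletal muscle score as a covariate, described below, Per3, Ciart and Clock changed sign. The estimate was positive for 7 of 8 outputs, with a median of 0.26 on the log2 scale, and it was -0.60 for both Arntl and Clock. The same ovariectomized libraries were in view when the members were chosen, so positive signs of the outputs were favoured by that choice. No member had groups that did not overlap, in either direction, beside 5.02% of all genes on the higher and 3.92% on the lower side. No member passed the test in edgeR or in DESeq2, which called 0.425% of all genes.

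**Figure D2:**
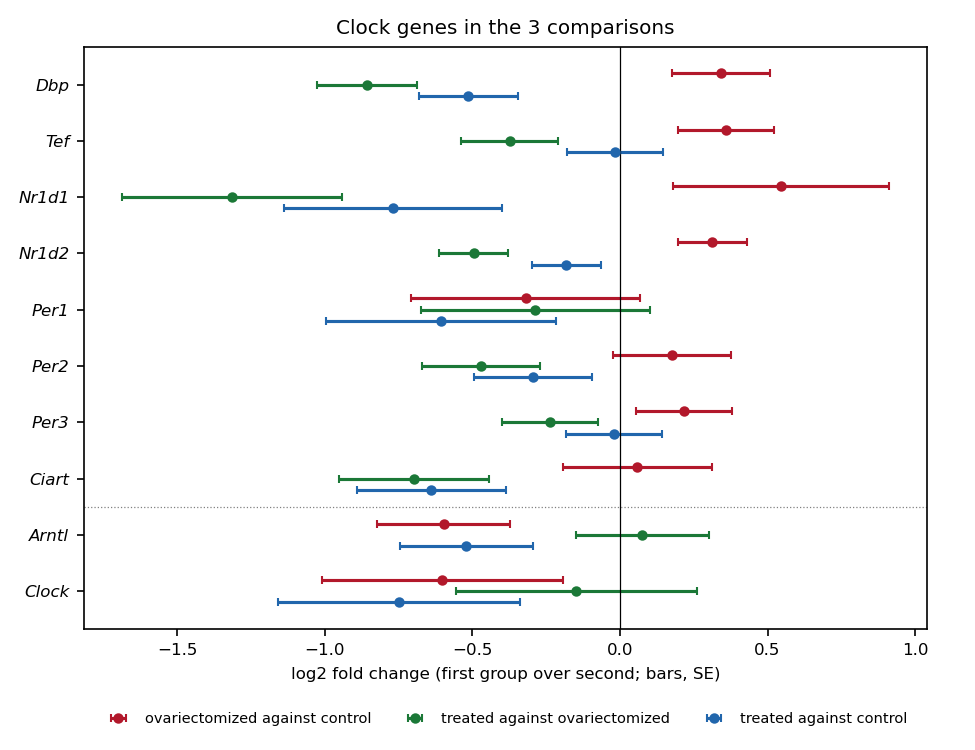
Log2 fold changes (horizontal axis; points) with their SE (bars) from edgeR are plotted for the 10 clock genes in the 3 comparisons, the first-named group over the second. The outputs stand above the dotted line and lie left of 0 for treated against ovariectomized rats, from -1.31 for Nr1d1 to -0.24 for Per3, while Arntl (0.08) and Clock (-0.15) lie near 0.

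Ratios taken inside a library do not depend on how libraries are scaled. The mean log2 CPM of the 8 outputs minus that of Arntl and Clock was 1.10, 0.69 and 1.52 in treated rats, 1.58, 1.89 and 1.52 in ovariectomized rats and 0.58, 1.17 and 1.03 in controls. All 3 ovariectomized libraries lay above all controls, and treated replicate 3 came level with the lowest ovariectomized library. The means were 1.10 ± 0.42 in treated rats, 1.66 ± 0.20 in ovariectomized rats and 0.93 ± 0.31 in controls (SD, n = 3 each). Treated minus ovariectomized rats, the difference was -0.56, with a range of -0.77 to -0.36 when 1 library was left out, and ovariectomized minus control rats it was 0.74, with a range of 0.56 to 0.86. Treated minus control rats it was 0.17, and its sign was not stable: it was -0.04 without treated replicate 3 and -0.0017 without control replicate 1.

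The ratios of Nr1d1 and of Dbp to Arntl also placed the ovariectomized libraries highest, a pattern that not all outputs shared. Relative to Arntl, Per1 was highest in treated replicate 3 (Per1 86.1 CPM, Arntl 6.12 CPM). Tef relative to Arntl was higher in that library (Tef 32.6 CPM) than in ovariectomized replicate 3 (Tef 31.7 CPM, Arntl 6.75 CPM). The log2 ratio of Nr1d1 to Arntl, the repressor to its target, was 0.18, -0.03 and 0.76 in treated rats, 1.49, 2.49 and 1.09 in ovariectomized rats and 0.14, 0.79 and 0.57 in controls, so the ovariectomized libraries were above all others. The ratio of Dbp to Arntl was 1.48, 1.13 and 1.18 in treated rats, 2.16, 2.80 and 1.60 in ovariectomized rats and 1.58, 0.99 and 1.29 in controls, again with the ovariectomized libraries above all others. The highest value of both ratios was in ovariectomized replicate 2, which had the highest Nr1d1 and Dbp and the lowest Arntl of the 9 libraries. The ratio of Per1 to Dbp behaved differently: it averaged 1.53 ± 0.95 in treated rats, 1.15 ± 0.46 in ovariectomized rats and 1.78 ± 0.26 in controls (SD, n = 3 each), and treated replicate 3 had the highest value of all, 2.63. No p is given for these ratios, because they were formed from members chosen on these libraries.

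**Figure D3:**
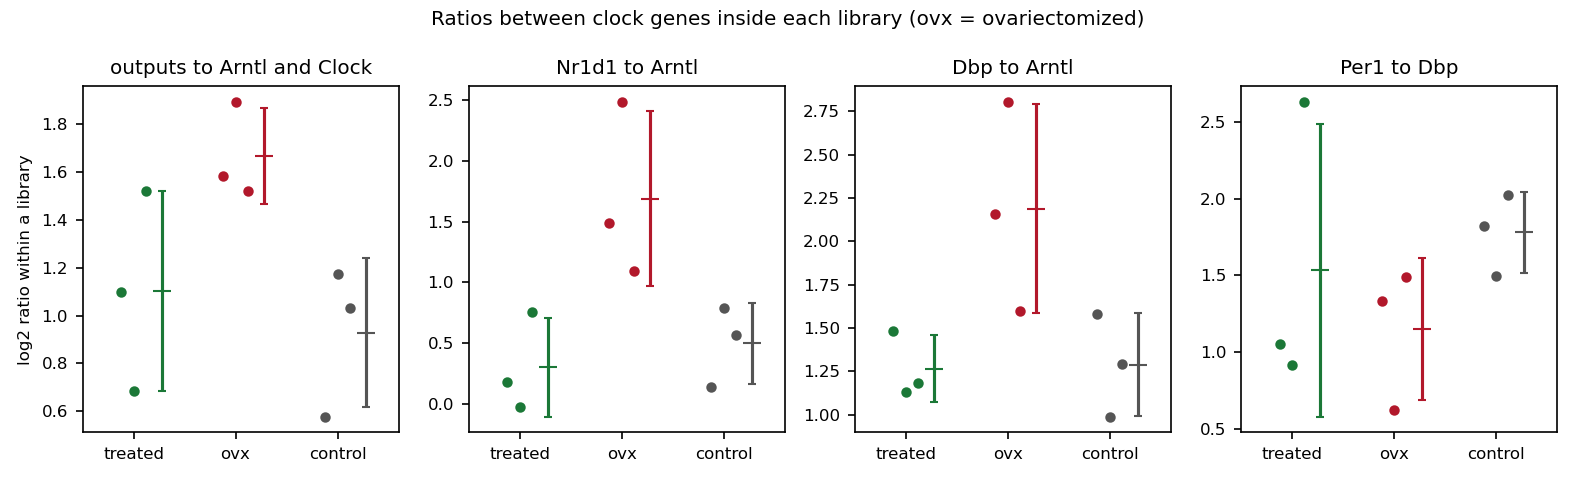
Log2 ratios between clock genes inside each library (vertical axis; a point per library, mean with SD beside them, n = 3) for treated, ovariectomized (ovx) and control rats. Vertical axes differ between panels and do not start at 0. In the panels of Nr1d1 to Arntl and Dbp to Arntl, the 3 ovariectomized points lie above all treated and control points.

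Correlations between outputs over the libraries partly reflect how the members were chosen, since lower outputs in treated than in ovariectomized rats were known beforehand. No share over all gene pairs is given beside them. Over the 9 libraries all 28 pairs of outputs had a positive Pearson correlation of log2 CPM, from 0.12 (Per1 and Per3) to 0.93 (Dbp and Nr1d2), with a median of 0.61. After the group means were removed, the median was 0.31 and 26 of 28 pairs stayed above 0, Dbp with Nr1d2 at 0.85 and Dbp with Nr1d1 at 0.47. The 2 pairs below 0 were Nr1d1 with Per2 at -0.46 and Dbp with Per1 at -0.22. Arntl had a negative correlation with 6 of 8 outputs, between -0.46 (Tef) and 0.30 (Per1), and Clock a positive one with 6 of 8, between -0.35 (Per3) and 0.64 (Per2). Arntl and Clock, which work as a pair, had a correlation of -0.05 over the 9 libraries and of -0.60 after the group means were removed. These values share library, scaling and tissue make-up and are given as a description without p.

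The mean of the 8 outputs, each centred on its own mean over the libraries, was -0.44, -0.44 and -0.10 in treated rats, 0.35, 0.40 and 0.08 in ovariectomized rats and -0.10, -0.04 and 0.29 in controls (log2 units). Ovariectomized replicate 3 and control replicate 3 thus stood in the reverse of the order of their groups. Ovariectomized replicate 2 was the highest library for 4 outputs (Dbp, Tef, Nr1d1 and Ciart), and treated replicate 1 the lowest for 3 (Nr1d1, Nr1d2 and Ciart).

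**Figure D4:**
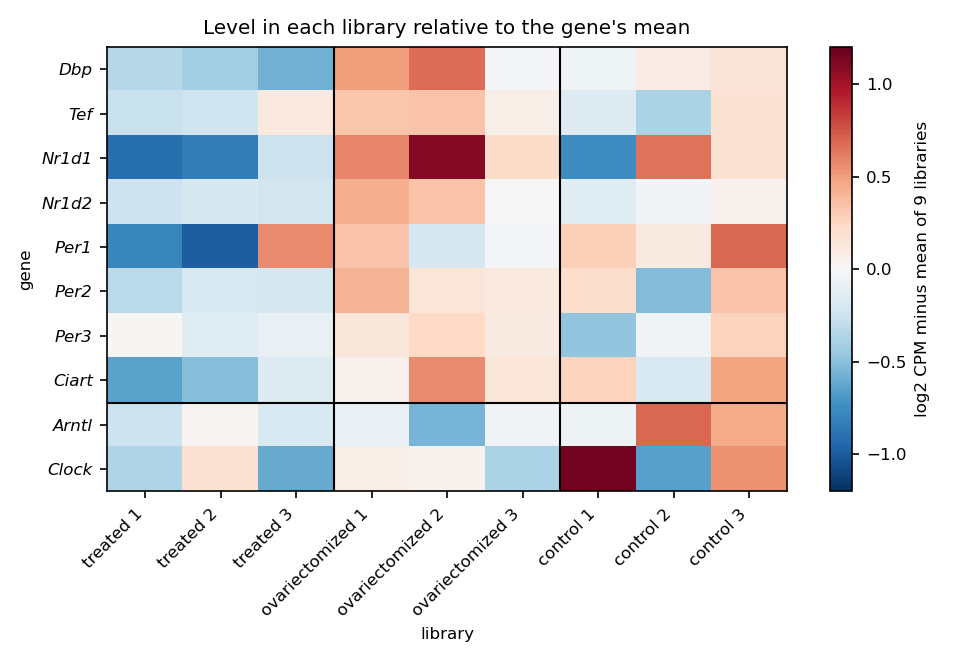
Heat map of log2 CPM minus the gene's mean over the 9 libraries (colour scale in log2 units; rows are clock genes, columns are libraries). The outputs above the horizontal line are mostly below their mean in treated replicates 1 and 2 and mostly above it in ovariectomized replicates 1 and 2; treated replicate 3 departs from its group for Per1, and Arntl is lowest in ovariectomized replicate 2.

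Further genes of the clock were measured for comparison. Of 23 such genes, 15 passed the filter and 8 did not, among them Npas2, Arntl2, Hlf and Bhlhe41, low in femur by this measure. In treated against ovariectomized rats 10 had a positive and 5 a negative estimate, with a median of 0.03 on the log2 scale, and 0 of 15 passed in edgeR. Among those with the smallest p were Btrc, Nampt, Gsk3b, Nfil3 and Noct. Btrc, a ubiquitin ligase subunit that targets PER proteins for degradation, was at -0.30 ± 0.13. Nampt, the NAD-producing enzyme driven by the clock in mouse liver, was at -0.22 ± 0.14, and the kinase gene Gsk3b at 0.13 ± 0.09. Nfil3, a repressor that competes with Dbp and Tef for D-boxes, was at 0.24 ± 0.18, and Noct at 0.18 ± 0.19. The CRY genes themselves, partners of PER in repression, were near 0: Cry1 at 0.03 ± 0.24 and Cry2 at -0.07 ± 0.13.

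In treated against control rats 13 of the 15 had a positive estimate (median 0.08), and in ovariectomized against control rats 11 of 15 (median 0.05), with 0 passing in edgeR in either. Nampt, Cry2, Bhlhe40 and Csnk1d were higher in every ovariectomized than in every control library on the CPM scale, beside 5.02% of all genes tested, and Csnk1d overlapped on the FPKM scale. Nampt was at 0.41 ± 0.14 and Cry2 at 0.24 ± 0.13. Negative estimates in treated against ovariectomized rats were thus counted for 5 of 15 of the wider list and for 8 of 8 outputs, the outputs having been chosen with that comparison known.

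Per1 and Per2 are also targets of glucocorticoid signalling and of the immediate early response, so genes of those responses were set beside them. In treated against ovariectomized rats 12 of 15 tested glucocorticoid-responsive genes had negative estimates (median -0.24). Those with the smallest p were Zbtb16 at -1.43 ± 0.36, Klf9, itself a clock-controlled factor, at -0.78 ± 0.24, Fkbp5 at -0.18 ± 0.06 and Mt2A at -0.52 ± 0.23. Of 16 immediate early genes 15 had negative estimates (median -0.22), those with the smallest p being Fos at -0.94 ± 0.15, Fosb at -1.38 ± 0.25, Atf3 at -1.50 ± 0.28 and Egr1 at -0.65 ± 0.14. None of these genes passed in edgeR over all genes tested. Treated replicate 3, the treated library with high Per1, was the highest treated library for 4 of 8 outputs (50%, Per1 among them). It was also the highest treated library for 8 of 15 glucocorticoid-responsive genes (53.3%), 3 of 16 immediate early genes (18.8%) and 31.3% of all genes tested. The part of the glucocorticoid-responsive and immediate early genes in the values of the clock genes was not tested.

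A femur sample holds bone, marrow and attached soft tissue, and the make-up of the libraries differed between groups. Skeletal muscle markers, 15 of 18 with a row, summed to 1170 to 2397 CPM in treated rats, 1582 to 6936 CPM in ovariectomized rats and 469 to 1438 CPM in controls, and 15 of 15 had a negative estimate for treated against ovariectomized rats (median -1.08 on the log2 scale). Erythroid markers (11 of 12 with a row) summed to 5996 to 7360 CPM in treated, 7238 to 7886 CPM in ovariectomized and 6619 to 10825 CPM in control rats, and 11 of 11 had a negative estimate for treated against ovariectomized rats. Fibroblast and tendon markers (10 of 10 lower) summed to 785 to 1023 CPM in treated, 1016 to 1553 CPM in ovariectomized and 974 to 1559 CPM in control rats. Neutrophil markers (11 of 11 tested were higher) summed to 22448 to 33743 CPM in treated, 19684 to 23893 CPM in ovariectomized and 16343 to 27667 CPM in control rats. Cartilage markers (10 with a row, 8 tested) summed to 144 to 608 CPM in treated, 183 to 257 CPM in ovariectomized and 347 to 1315 CPM in control rats, and 8 of 8 had a positive estimate for treated against ovariectomized rats (median 0.84) and a negative one for ovariectomized against control rats (median -1.93). Adipocyte markers (10 of 10 with a row) summed to 1423 to 2422 CPM in treated, 1370 to 2032 CPM in ovariectomized and 485 to 1121 CPM in control rats. Of these, 5 of 10 had a positive estimate for treated against ovariectomized rats and 10 of 10 for ovariectomized against control rats (median 1.19). Osteoblast markers, which define the labelled tissue, summed to 2799 to 7047 CPM in treated rats and 3098 to 8679 CPM in ovariectomized rats. In controls they summed to 5062 to 9351 CPM. Estimates were negative for 9 of 10 in treated against ovariectomized rats and for 10 of 10 in ovariectomized against control rats (median -0.38). No marker with a row had 0 counts summed over the 3 libraries of any group. In bulk tissue, fewer cells of a type and less RNA per cell cannot be told apart.

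The clock members were refitted with the skeletal muscle score of each library as a covariate. In treated against ovariectomized rats Dbp then had a log2 fold change of -0.94, Nr1d1 -1.08, Nr1d2 -0.57, Per2 -0.57, Ciart -0.60, Tef -0.35, Per1 -0.19 and Per3 -0.08, with Arntl at 0.16 and Clock at -0.62. The median over the outputs was -0.57 with the covariate and -0.48 without it. In ovariectomized against control rats, where muscle markers differed most, Nr1d1 was at 0.15 with the covariate, Per3 at -0.05, Ciart at -0.12 and Clock at 0.22, so that the last 3 changed sign. The part of the erythroid, fibroblast, neutrophil, cartilage, adipocyte and osteoblast markers in the clock values was not tested.

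Finally, the genes most like the outputs were ranked by the Pearson correlation of their log2 CPM with the mean of the 8 centred outputs, over 9 libraries and 11710 named genes. Among the 6 highest were Dhx33 (0.94), an RNA helicase gene; Pik3ip1 (0.93), whose product inhibits PI3 kinase; Nudt19 (0.92); the mitochondrial ribosomal protein gene Mrpl42 (0.92); and Safb (0.91). Pik3ip1 measured 3.06, 2.92 and 4.49 CPM in treated rats, 5.10, 4.99 and 4.68 CPM in ovariectomized rats and 3.91, 3.75 and 4.63 CPM in controls, so that treated and ovariectomized libraries did not overlap and treated replicate 3 lay among the controls. At the opposite end stood Slc16a12 (-0.93), a monocarboxylate transporter gene, Ubp1 (-0.92), Tpcn2 (-0.91) and Mterf1 (-0.90). Slc16a12 measured 6.52, 5.67 and 5.66 CPM in treated rats, 3.34, 2.83 and 4.09 CPM in ovariectomized rats and 4.13, 4.36 and 3.71 CPM in controls, with each treated library above any other. These are the extremes of 11710 values over 9 libraries, of which 7 reached 0.9 and 4 reached -0.9, and they are given as a description. The mean of the outputs itself separated treated from ovariectomized libraries, so non-overlap of these groups was favoured by the ranking. Of all genes tested, 6.63% were lower and 5.75% higher in treated than in ovariectomized libraries without overlap, and 6.34% were higher in treated than in control libraries.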

How the data were processed

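The authors deposited 1 table that holds, per the file headers, a count column and an FPKM column for each library, beside Ensembl identifiers, symbols and positions of rat genes. FPKM is the authors' own scaling of the deposited values for length and depth. Tools named in the submitters' processing notes are fastp, HISAT2 and StringTie; no version, no genome build and no counting method is given, and the count columns were used as raw read counts.

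From the counts, edgeR 4.0.16 (R 4.3.3) was fitted once over all 9 libraries with TMM factors and the quasi-likelihood test, for genes averaging 1 FPKM or more, and p-values were adjusted by Benjamini-Hochberg over 13886 genes (threshold 0.05). The common biological coefficient of variation was 0.262. Every per-sample column matched 1 sample's label. Counts of each of the 9 pairs of libraries within a group differed by more than sampling noise, so none was merged. At 54992823 or more counts per library sampling error is small for most members, and largest for Ciart with 71 to 180 counts. With 3 libraries against 3, the smallest 2-sided exact permutation p is 0.1.

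The members and lists were chosen with earlier results of these data known. Named genes were the 10 members, the 6, 4 and 4 genes with the smallest p in treated against ovariectomized rats from the wider clock, glucocorticoid-responsive and immediate early lists, and the 6 most and 4 least like genes (some genes that this rule names are not reported here); Cry1 and Cry2, the wider clock genes named for ovariectomized against control rats, and the genes below the filter were named after their values were seen. Marker symbols without a row were not analysed here.

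Alternatives were DESeq2 1.42.0, limma 3.58.1 on log2(FPKM + 1) and log2(FPKM + 0.1), median-of-ratios scaling, no filter, a filter at 5 FPKM, only the 2 groups compared, the replicate number as a block, the skeletal muscle score as a covariate, and each library left out. Promoter windows came from RefSeq (GRCr8), and ratios and correlations were computed with Python 3.11.15.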

Additional observations from a re-analysis of the deposited data

How the results depend on the processing

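Counts of genes called over the whole table depended on the tool: DESeq2 called 35 in treated against ovariectomized rats, 153 in treated against control rats and 59 in ovariectomized against control rats, and edgeR on only the 2 groups compared called 1, 1 and 2. Leaving out 1 library gave 0 to 2, 0 to 3 and 0 to 4. In ovariectomized against control and treated against control rats, no member was called under any alternative run. The median of the outputs in treated against control rats was -0.21 with limma on log2(FPKM + 1). For ovariectomized against control rats, leaving out 1 library moved Per2 between -0.052 (without control replicate 2) and 0.34 and Ciart between -0.12 (without ovariectomized replicate 2; -0.11 without control replicate 2) and 0.21, and the muscle covariate turned the sign of Per3 (-0.046), Ciart (-0.12) and Clock (0.22). For treated against control rats, leaving out 1 library moved Tef between -0.15 and 0.14 (without control replicate 3; 0.052 and 0.042 without treated replicates 1 and 2) and Per3 between -0.19 and 0.17 (without control replicate 3; 0.015 without treated replicate 2). Limma put Tef and Per3 at 0.066 and 0.075 on log2(FPKM + 1) and at 0.076 and 0.093 on log2(FPKM + 0.1). The cause was not tested. At 5 FPKM, Arntl, Clock and Ciart were not tested.

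The replicate number as a block gave 0 calls in each comparison and medians of the outputs of -0.48, -0.39 and 0.27 in the same order. Residuals of same-numbered libraries correlated between -0.14 and 0.16, and those of other libraries between -0.14 and 0.13. These values show no clear pairing by number but cannot exclude it.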
